A study of Arabidopsis thaliana with 12 samples.

Results

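Transcription factors of 7 named families were followed in Arabidopsis seedlings in which oligomycin blocked the mitochondrial ATP synthase. Genes were taken by name: every gene with a probe set of its own whose symbol begins with one of 17 family prefixes and a digit. BZIP60, WRKY6 and WRKY53 were left out with their values known. This gave 33 genes out of the 13356 that have a single-gene probe set and a name in the tables used here. They are 13 bZIP, 7 IAA, 5 bHLH, 4 WRKY and 2 LBD genes and 1 gene each of the NAC and TCP families. The other 10 prefixes (MYB, ANAC, ERF, HB, ARF, GATA, HSFA, HSFB, DOF and SPL) gave no gene, and members of those families were not analysed here. The names used here leave 8730 of the 22746 probe sets tested without a gene, so the family sizes describe the named genes and not the array. No member carried the name of another kind of protein in the gene table, but the IAA genes encode repressors that act through partner factors, so the term transcription factor is used loosely for them.

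All 12 arrays held RNA from whole Col-0 seedlings raised in shaken liquid culture with sucrose until day 9 and then kept in darkness, for 24 h before the treatment and throughout it. The cultures received 10 µM oligomycin or the same volume of ethanol, the solvent. The 4 groups were oligomycin at 4 h, ethanol at 4 h, oligomycin at 1 h and ethanol at 1 h, with 3 arrays labelled as biological replicates in each. Every flask held many seedlings, no group was left without darkness, and whether replicates came from separate days is not stated. The values are linear array intensities, and changes are differences in log2(intensity + 16), which understate the change of dim genes. "Rose" and "fell" are used where the limma p-value adjusted over all 22746 probe sets tested was under 0.05, and errors are SD over 3 arrays for intensities and SE for log2 changes.

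Plants read stress, nutrients and hormones through such families. WRKY and NAC proteins act in defence and in responses to damage, bZIP proteins in protein-folding stress, energy shortage and zinc supply, and a branch of the bHLH family in iron supply. Aux/IAA proteins hold auxin response factors silent until auxin triggers their breakdown, and LBD genes are among the targets that are then switched on in young lateral roots. TCP proteins control growth and cell division.

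After 4 h of oligomycin, members were called in both directions. WRKY22 and IAA30 rose more than any other member, while BZIP61, bHLH34, bZIP44, TCP15 and bZIP19 had the largest falls. In all, 6 of 33 members rose (18.2%), against 11.4% of all probe sets, and 11 fell (33.3%), against 25.3% of all probe sets. The remaining 16 were not called. These shares lie near the background, and the median change over the members was −0.15, beside −0.10 over all probe sets. The 3 oligomycin arrays lay above all 3 ethanol arrays for 6 members (18.2%, background 14.5%) and below them for 14 (42.4%, background 32.3%). The 3 genes kept out by the rule had been left out with their values known: BZIP60, WRKY6 and WRKY53 rose by 2.65, 2.30 and 1.90 at 4 h on the log2 scale, and with them 9 of 36 would have risen.

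The number of falls depended on how arrays were put on a common scale. With every array centred on its median, 6 members fell and 7 rose, while 7267 of all 22746 probe sets were called. Over all probe sets the median change at 4 h was 0.062 with centring and −0.099 on the deposited scale, and falls made up 47.1% of calls with centring and 68.9% on the deposited scale. Quantile normalization gave 8 falls and 6 rises. Over all probe sets it gave 7665 calls, of which 60.7% were falls. The 6 falls called under all 3 scalings were BZIP61, bHLH34, bZIP44, TCP15, bZIP19 and BZIP24, and the 6 rises were called under all 3. Without the third oligomycin array of 4 h, or without the second ethanol array of 4 h, 7 members fell.

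**Figure D1:**
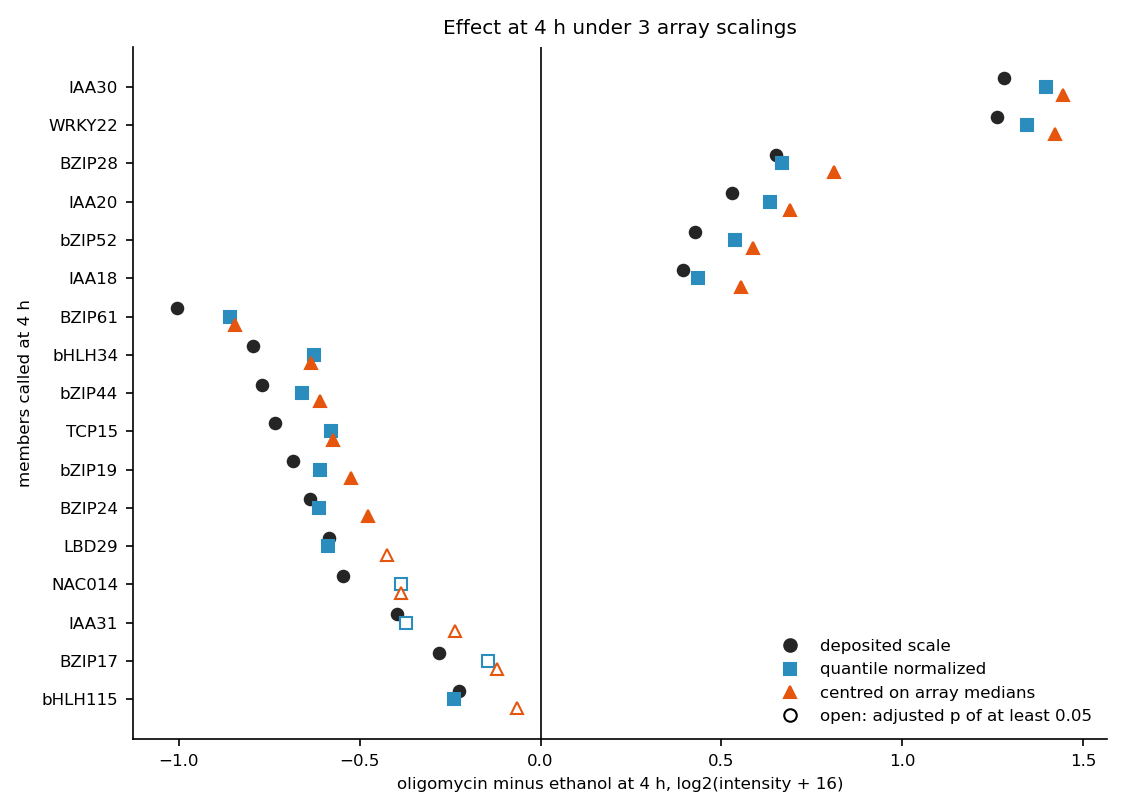
Change at 4 h (oligomycin minus ethanol, log2(intensity + 16), horizontal axis) of the 17 members called at 4 h on the deposited scale, given for the deposited scale, after quantile normalization and with arrays centred on their medians. Filled symbols have an adjusted p under 0.05; all 6 rises and 6 of the 11 falls are filled in every scaling.

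The bZIP genes, the largest of the 7 families here, moved in both directions at 4 h, with 2 rises and 5 falls among 13. These are 15.4% up and 38.5% down, against 11.4% and 25.3% of all probe sets. Counting BZIP60, which was left out with its rise known, 3 of 14 rose (21.4%). BZIP28, which encodes a membrane-held factor that is released when proteins misfold in the endoplasmic reticulum, read 183.8, 205.3 and 213.6 on the oligomycin arrays of 4 h and 106.5, 137.8 and 123.2 on the ethanol arrays. The groups did not overlap, and the change was 0.65 ± 0.11 (adjusted p = 0.000406). BZIP17, a membrane-held relative linked to salt and folding stress, went the other way, with 63.4 ± 5.70 in oligomycin and 80.3 ± 3.70 in ethanol. Its change of −0.28 ± 0.10 only just passed the test (adjusted p = 0.0497) and was not called after either quantile normalization or centring (adjusted p = 0.326 and 0.41). BZIP17 was called in only 8 of 22 alternatives, while BZIP28 was called in all 22. The 95% intervals of these relatives at 4 h, from 0.42 to 0.88 for BZIP28 and from −0.50 to −0.06 for BZIP17, lay on opposite sides of 0.

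bZIP44 and BZIP53 belong to a group of small bZIP factors known for responses to low energy and for control of amino acid metabolism. At 4 h, bZIP44 read 79.5, 71.8 and 83.7 in oligomycin, below its 129.9, 168.5 and 137.9 in ethanol, a change of −0.77 ± 0.12 (adjusted p = 0.000234). BZIP53 was at 376 ± 43.1 in oligomycin and 338.5 ± 30.7 in ethanol, with overlapping arrays and an interval from −0.11 to 0.40 that contains 0. At 1 h BZIP53 had stood higher on every oligomycin array (419.8, 494.4 and 382.1) than on every ethanol array (333.4, 307.6 and 354.2), but this change of 0.36 ± 0.12 did not pass the test (adjusted p = 0.138). The related genes bZIP42, bZIP43, bZIP48 and bZIP58 were dim or nearly so, with group means between 1.70 and 25.1, and none was called at either time on the deposited scale. bZIP43 was called upward at 4 h in 3 of 21 alternatives, among them centring on medians (0.59, adjusted p = 0.037), and bZIP58 downward in 5 of 21, among them a pseudocount of 1 (−0.46, adjusted p = 0.0461).

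bZIP19, a sensor of zinc shortage that switches on zinc transporter genes, was among the most sharply separated falls. It read 111.7, 108.4 and 99.2 in oligomycin at 4 h and 188.7, 173.9 and 179.8 in ethanol (−0.69 ± 0.09, adjusted p = 4.83e-05). BZIP24, a close relative tied to salt responses, was dim, with 9.2, 3.4 and 3.0 in oligomycin and 13.1, 18.2 and 19.2 in ethanol. Its groups did not overlap either, and its fall of 0.64 on the log2 scale had an adjusted p = 0.0116, which reached 0.05 without the third oligomycin array of 4 h. bZIP52, a relative of the osmotic and mechanical stress factor VIP1, rose, with 95.8, 85.2 and 93.2 in oligomycin against 63.0, 64.9 and 63.4 in ethanol (0.43 ± 0.09, adjusted p = 0.00298).

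BZIP61 had the largest fall of all 33 members. Its intensities were 21.3, 22.7 and 24.6 in oligomycin at 4 h and 63.6, 54.0 and 69.1 in ethanol, a change of −1.01 ± 0.10 (adjusted p = 7.28e-06). At 1 h the oligomycin arrays were already below the ethanol arrays, with 59.1, 76.2 and 63.8 against 96.8, 91.8 and 87.9, but the change of −0.40 ± 0.10 missed the threshold (adjusted p = 0.0544). BZIP61 was also lower at 4 h than at 1 h in ethanol alone on every array (62.2 ± 7.64 and 92.2 ± 4.46), without a call (adjusted p = 0.135). BZIP34, its close relative in the family, was near the lower end of the scale, between 0.2 and 8.4 on the 12 arrays, and was called only with a pseudocount of 1 (adjusted p = 0.0228 at 4 h). Its oligomycin arrays of 4 h read 0.4, 0.5 and 0.2, and the ethanol arrays 8.4, 1.5 and 1.4.

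**Figure D2:**
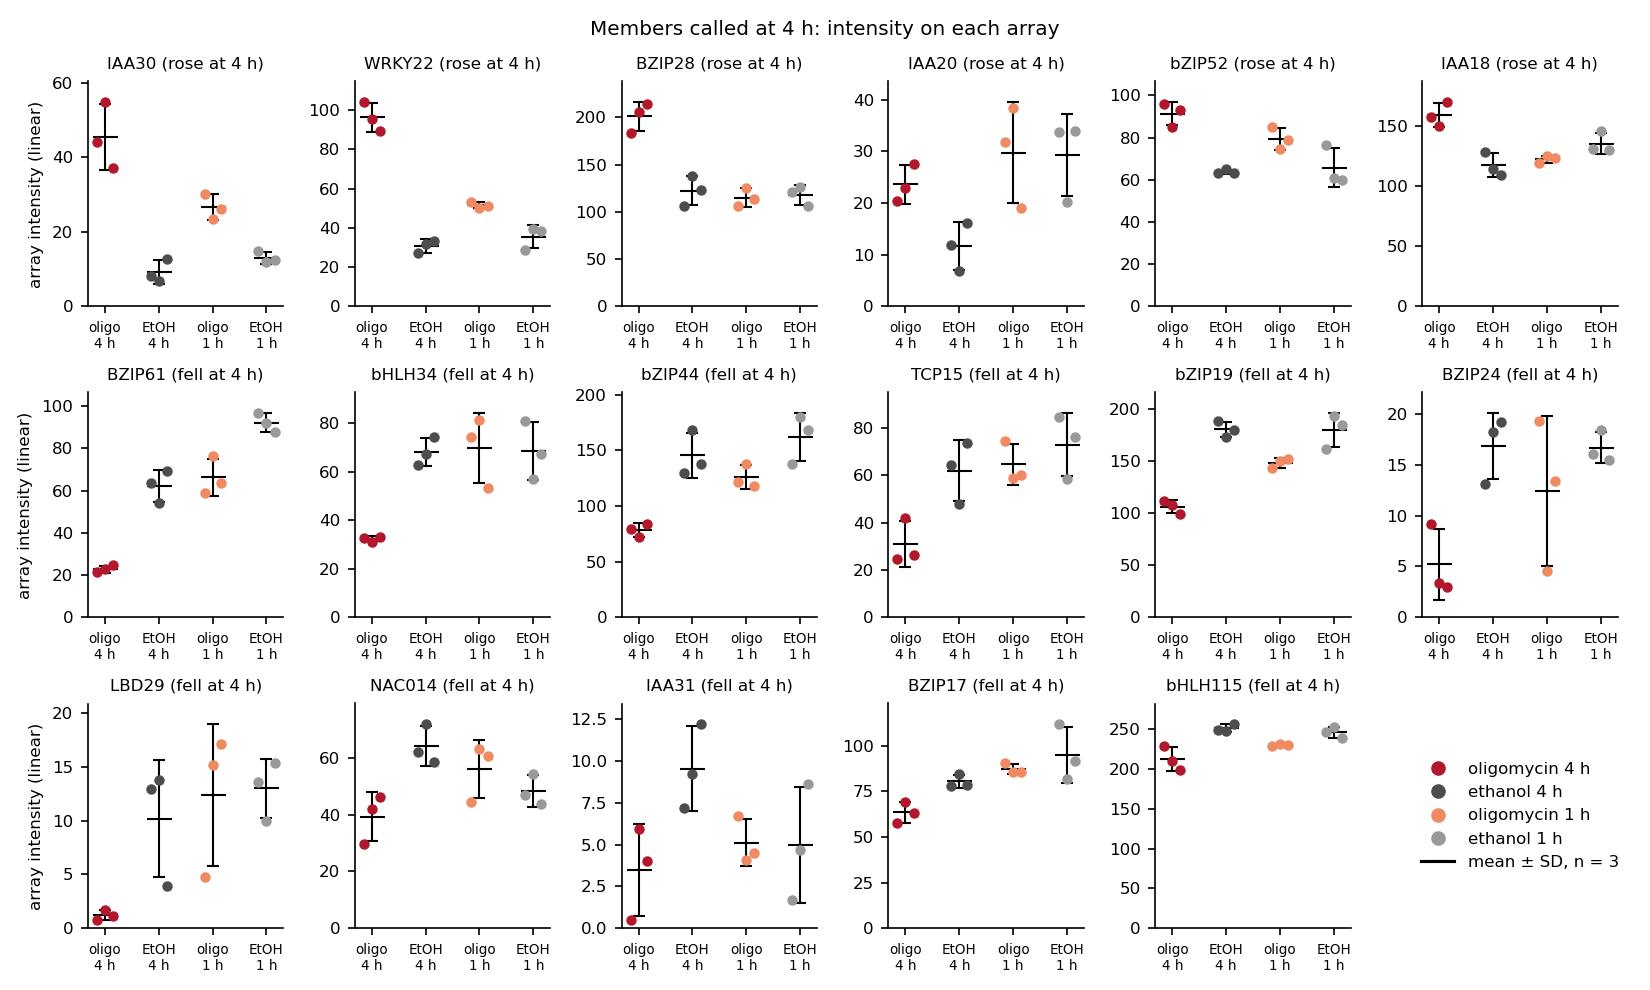
Linear array intensity (vertical axes, from 0, a scale for each gene) of the 17 members called at 4 h, with a point for each of the 3 arrays of a group and the mean ± SD in black. For each of the 17 genes the 3 oligomycin arrays of 4 h lie wholly above (6 genes) or wholly below (11 genes) the ethanol arrays of 4 h; at 1 h most pairs of groups overlap.

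Among the WRKY genes, WRKY22, which acts downstream of kinase cascades in immune signalling and in senescence in darkness, was the one that changed. It read 104.2, 95.4 and 89.3 on the oligomycin arrays of 4 h, against 27.0, 32 and 33.5 on the ethanol arrays, a change of 1.26 ± 0.10 (adjusted p = 9.35e-07). At 1 h the arrays were also apart, at 53.4, 50.3 and 51.2 in oligomycin and 28.8, 39.4 and 38.2 in ethanol. That earlier change of 0.40 ± 0.10 fell just short of the threshold (adjusted p = 0.0513), and it passed in 6 of 22 alternatives, among them quantile normalization and centring on medians.

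The other WRKY members did not pass the test at either time. WRKY47 averaged 46.9 ± 6.76 in oligomycin and 39.3 ± 12.2 in ethanol at 4 h, with an interval from −0.15 to 0.56. WRKY20 averaged 66.8 ± 5.31 in oligomycin and 73.7 ± 8.18 in ethanol (interval −0.34 to 0.11), and the sign of its small change turned after quantile normalization and after centring. WRKY42, known from phosphate supply, was at 0.9 to 10.4 on the 12 arrays. Of the 4 WRKY members, 1 rose at 4 h (25%) and none fell, against 11.4% and 25.3% of all probe sets. Counting WRKY6 and WRKY53, which were left out with their rises known, 3 of 6 rose.

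The Aux/IAA genes included 3 of the 6 rises at 4 h, with 1 fall, among 7 members. These are 42.9% up and 14.3% down, against 11.4% and 25.3% of all probe sets. IAA30, which lacks the segment through which auxin marks Aux/IAA proteins for breakdown, had the largest rise of the 33 members. Its arrays read 44.1, 54.8 and 37.2 in oligomycin at 4 h and 8.1, 6.7 and 12.7 in ethanol (1.28 ± 0.12, adjusted p = 4.53e-06). The ethanol values lie below the added 16, so the ratio of the linear means is larger than this change implies, and with a pseudocount of 1 the change was 2.21.

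IAA20, a near relative of IAA30, read 20.3, 22.8 and 27.6 in oligomycin at 4 h and 11.9, 6.8 and 16.1 in ethanol (0.53 ± 0.18, adjusted p = 0.0363). Unlike IAA30, IAA20 was no higher in oligomycin at 4 h than in either group at 1 h, where it averaged 29.7 ± 9.80 in oligomycin and 29.3 ± 7.88 in ethanol. In ethanol, IAA20 averaged 11.6 ± 4.66 at 4 h and 29.3 ± 7.88 at 1 h, on arrays that did not overlap, though that difference was not called (adjusted p = 0.195). The call of IAA20 at 4 h was lost in 6 of 21 alternatives, with an adjusted p of up to 0.142, and with the replicate block it was 0.0521. IAA18, a repressor known from root and embryo development, rose to 159.5 ± 10.1 in oligomycin, against 118 ± 9.96 in ethanol (0.39 ± 0.09, adjusted p = 0.0031). IAA31, also a relative of IAA20, fell at intensities near the lower end of the scale, with 0.5, 5.9 and 4.0 in oligomycin and 7.2, 9.2 and 12.2 in ethanol (−0.40 ± 0.14, adjusted p = 0.0381), and was called in 11 of 21 alternatives. IAA29, IAA33 and IAA34 were not called, with changes of −0.20, −0.31 and 0.05 at 4 h.

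Of 7 measured genes of auxin synthesis and conjugation, 1 rose at 4 h (14.3%) and none fell, against 11.4% and 25.3% of all probe sets. They were taken from a list of 48 symbols of auxin transport, perception and metabolism and any SAUR gene. The gene that rose was WES1, which joins auxin to amino acids, at 144 ± 13.9 in oligomycin and 88.7 ± 14.4 in ethanol (0.62, adjusted p = 0.0354). At 1 h the change of WES1 was much the same, 0.65, with all 3 oligomycin arrays above all 3 ethanol arrays, but was not called (adjusted p = 0.143). Its effect at 4 h minus that at 1 h was −0.03 (adjusted p = 0.969). GH3.3, of the same enzyme family, stood at 83.1 ± 15.5 in oligomycin and 68.9 ± 4.36 in ethanol (adjusted p = 0.169), and GH3.1 and the auxin synthesis genes YUC2, YUC4, YUC6 and YUC11 were not called. The median change of the 7 was 0.01 at 4 h, beside −0.10 over all probe sets. SEU, the 1 measured gene of 32 listed repressor partners, fell to 59.8 ± 3.33 in oligomycin at 4 h, against 84.6 ± 10.9 in ethanol (adjusted p = 0.0102).

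LBD16 and LBD29, targets of auxin signalling in lateral root initiation, both read lower on all 3 oligomycin arrays of 4 h than on all 3 ethanol arrays. LBD29 fell, with 0.8, 1.7 and 1.1 in oligomycin and 12.9, 13.8 and 3.9 in ethanol (−0.58 ± 0.18, adjusted p = 0.0233), but the call was lost in 5 of 21 alternatives, among them centring on medians (adjusted p = 0.107). LBD16 read 45.9, 40.5 and 36.9 in oligomycin and 56.8, 47.9 and 46.1 in ethanol, and its change of −0.21 ± 0.11 was not called (adjusted p = 0.177). In the gene table BZIP34 and LBD16 lie on 1 chromosome with 4 protein-coding genes between them, and BZIP61 and LBD29 with 6 between them. IAA30 and BZIP53 are farther apart, with 31 between them, and IAA30 rose at 4 h while BZIP53 was not called. For BZIP34, LBD16, BZIP61 and LBD29 the oligomycin arrays of 4 h were below the ethanol arrays, a pattern found in 32.3% of all probe sets.

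Of the measured root markers, 2 of 3 fell at 4 h, beside 25.3% of all probe sets. The 3, out of 14 symbols on the root list, were PYK10, a root beta-glucosidase, and EXPA7 and EXPA18, expansins of root hairs. PYK10 fell to 1651 ± 42.3 in oligomycin at 4 h, against 2730 ± 118 in ethanol (−0.72, adjusted p = 3.92e-05). EXPA18 fell to 14.1 ± 2.41 in oligomycin, against 30.1 ± 4.82 in ethanol (adjusted p = 0.0075), and EXPA7 averaged 8.03 ± 5.05 in oligomycin and 20.7 ± 13.5 in ethanol without a call (adjusted p = 0.173). None of the 3 was at 0. None of the 12 leaf symbols and 12 flower, pollen and seed symbols had a single-gene probe set under the names used here, so those tissues were not analysed. In whole seedlings, fewer cells of a type and less RNA per cell cannot be told apart, and the part of root tissue in the falls of LBD29 or any other member was not tested.

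The bHLH genes belong to the iron supply circuit. bHLH34, bHLH104 and bHLH115 encode related activators, bHLH121 a partner of theirs, and BHLH101 a target that is switched on when iron is short. bHLH34 fell at 4 h, with 32.9, 31.1 and 33.3 on the oligomycin arrays against 62.7, 67.3 and 74.4 on the ethanol arrays (−0.79 ± 0.13, adjusted p = 0.000449). bHLH115 differed less, with 229.2, 209.2 and 199.1 in oligomycin and 249.2, 247.0 and 256.3 in ethanol (−0.23 ± 0.08, adjusted p = 0.0352), and the call was lost in 9 of 22 alternatives, among them the replicate block (adjusted p = 0.0541) and centring, where its change was −0.06 (adjusted p = 0.556). bHLH104 and bHLH121 did not pass the test, with intervals from −0.10 to 0.33 and from −0.17 to 0.22 at 4 h. BHLH101 was at 0.9 to 10.4 on the 12 arrays, below the added 16 throughout, and was not called at either time.

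NAC014, a NAC protein with a predicted membrane tail, fell at 4 h to 29.6, 41.9 and 46.2 in oligomycin, against 62.0, 71.9 and 58.6 in ethanol (−0.55 ± 0.14, adjusted p = 0.00726). It was not called after quantile normalization or centring (adjusted p = 0.0593 and 0.0579). TCP15, a regulator of cell proliferation and endoreduplication, read 24.7, 42.1 and 26.1 in oligomycin and 64.1, 48.0 and 73.4 in ethanol. That fall, −0.73 ± 0.17 with an adjusted p = 0.00403, was called in all 22 alternatives.

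**Figure D3:**
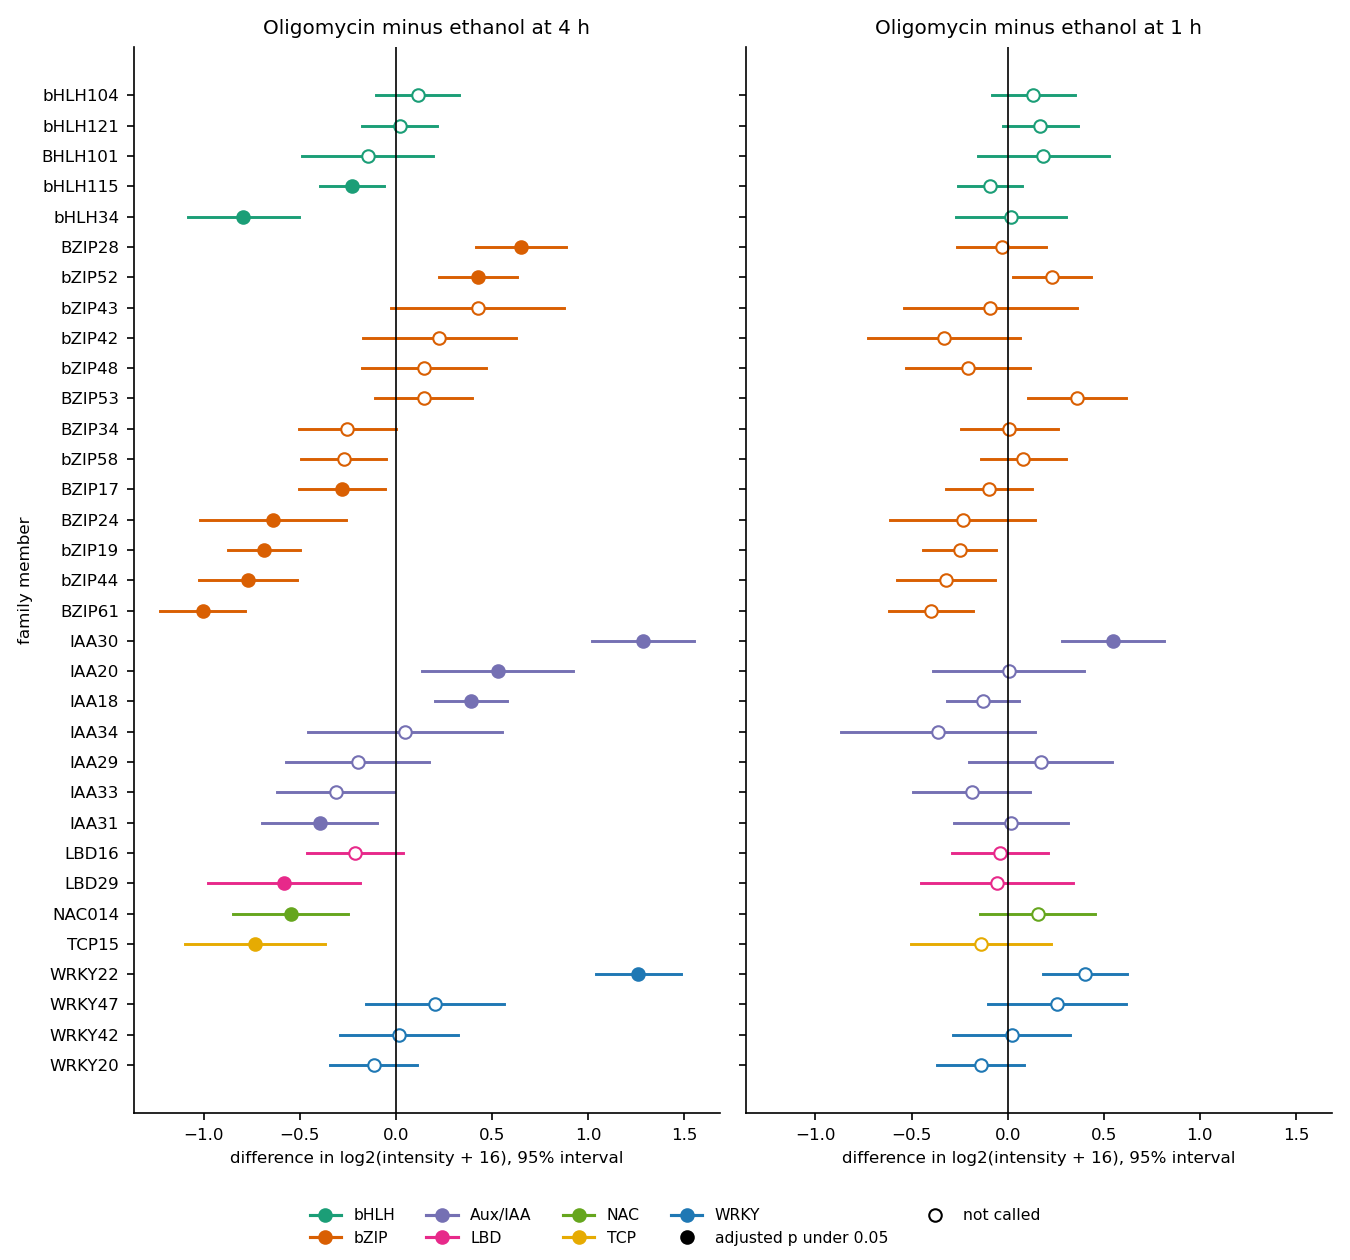
Change of each of the 33 members (oligomycin minus ethanol, log2(intensity + 16), horizontal axes) with its 95% interval from limma, at 4 h on the left and at 1 h on the right, coloured by family and ordered within a family by the change at 4 h. Filled points have an adjusted p under 0.05: 17 at 4 h, and IAA30 alone at 1 h.

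At 1 h only IAA30 rose among the 33 members and none fell. Over all probe sets 2.3% rose and 1.14% fell, and 1 member of 33 is 3.03%, a share near that background. IAA30 read 30.2, 23.3 and 26.1 on the oligomycin arrays and 14.9, 11.9 and 12.4 on the ethanol arrays, a change of 0.55 ± 0.12 (adjusted p = 0.0281). The call was not firm: it was lost without any 1 of the 3 ethanol arrays or without the first or the third oligomycin array of 1 h, with a pseudocount of 1 (adjusted p = 0.0558) and with the replicate block. Without the second ethanol array of 1 h, which correlated least with the others of its group, IAA30 had an adjusted p = 0.0709 and WRKY22 was called in its place (adjusted p = 0.0414). At an unadjusted limma p under 0.05 there were 7 of 33 members at 1 h, beside 3560 of all 22746 probe sets. With other settings limma called BZIP61 downward in 5 of 22 alternatives. The oligomycin arrays lay above the ethanol arrays for 3 members (9.09%, background 6.85%), namely IAA30, BZIP53 and WRKY22, and below them for 4 (12.1%, background 12.9%), namely BZIP61, bZIP19, bHLH115 and IAA18.

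The effect of oligomycin differed between the times for 8 members, 4 in each direction (12.1% each). Over all probe sets the effect was higher at 4 h than at 1 h for 7.2% and lower for 10.6%. It was higher at 4 h for WRKY22 (1.26 at 4 h and 0.40 at 1 h, difference 0.86 ± 0.14, adjusted p = 0.00128), IAA30 (1.28 and 0.55, difference 0.74), BZIP28 (0.65 and −0.03, difference 0.68) and IAA18 (0.39 and −0.13, difference 0.52). It was lower at 4 h for bHLH34 (−0.79 at 4 h and 0.02 at 1 h, difference −0.81 ± 0.19, adjusted p = 0.0098), NAC014 (−0.55 and 0.16, difference −0.70), BZIP61 (−1.01 and −0.40, difference −0.61) and bZIP19 (−0.69 and −0.25, difference −0.44). The 4 higher effects were called in every alternative in which the gene was tested. Of the lower ones, bHLH34 was too, while quantile normalization left 1 call of the 4, and leaving out the second or the third oligomycin array of 1 h left 2. IAA18 had estimates on both sides of 0, but its effect at 1 h was not called (−0.13, interval −0.31 to 0.06, adjusted p = 0.533). Its 3 oligomycin arrays were below the ethanol arrays at 1 h (119.5, 124.9 and 123.5 against 130.9, 145.7 and 129.9) and above them at 4 h (157.9, 150.4 and 170.3 against 128.9, 114.7 and 109.7). Of all 33 members, 20 had the same sign at 1 h as at 4 h, a share near the 62.6% of all probe sets. Of the 17 members called at 4 h, 12 had the same sign at 1 h. The 62.6% covers called and uncalled probe sets alike, so it is not a background for the 12 of 17.

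**Figure D4:**
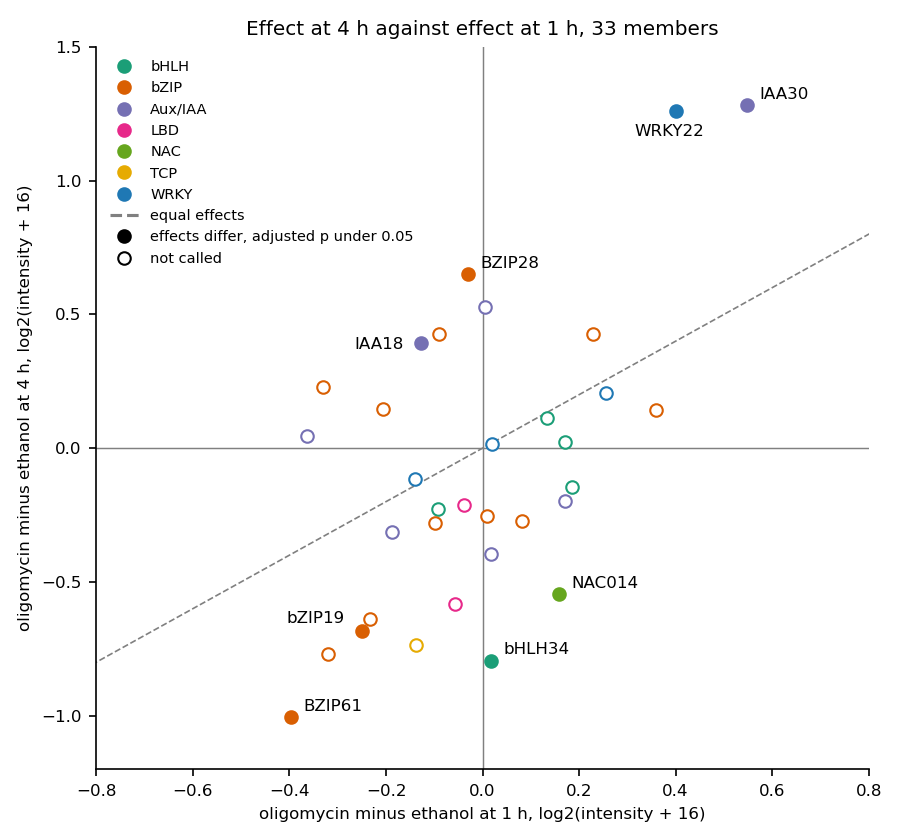
Change at 4 h (vertical axis) against change at 1 h (horizontal axis), both oligomycin minus ethanol on the scale of log2(intensity + 16), for 33 members coloured by family, with a dashed line of equal effects. The 8 filled and named members have effects that differ between the times (adjusted p under 0.05), with WRKY22 and IAA30 at the upper right and BZIP61 at the lower left.

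In ethanol alone, limma called no member at 4 h against 1 h, upward or downward, and among all probe sets 0% rose and 0.00879% fell. None was called in any of the 23 alternatives. At an unadjusted limma p under 0.05 there were 5 of 33 members, beside 2712 of all 22746 probe sets. For 3 members (9.09%, background 5.07%) the ethanol arrays of 4 h lay above those of 1 h, namely bHLH121 (170 ± 13.9 at 4 h and 135 ± 2.57 at 1 h), NAC014 (64.2 ± 6.91 and 48.3 ± 5.47) and BHLH101. For 3 others (9.09%, background 9.1%) they lay below, namely BZIP61, IAA18 and IAA20.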

How the data were processed

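The authors deposited 1 table of linear array intensity for 22810 probe sets on 12 arrays, between 0 and 6149.7. RMA is named in the submitters' processing notes with no version. Trimmed means (2%) lay between 99.19 and 99.3 on all arrays, and arrays of a group correlated with r of 0.975 to 0.993. The method that made linear values with zeros is not given in the sources used here.

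After 64 control probe sets were left out, log2(intensity + 16) was fitted with limma 3.58.1 in R 4.3.3, with the mean of each of the 4 groups, 8 residual and 4.14 prior degrees of freedom, two-sided tests and Benjamini-Hochberg adjustment over 22746 probe sets. The fit was tested on simulated data. The number of arrays, 3 per group, limits the precision. The labels call the replicates biological.

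Genes were named through the platform annotation, and all were looked up by gene ID in the TAIR10.1 gene table, which held all 33 members, each with 1 probe set. No sequence was used. Named genes were the called members, the brightest of each family and those with a textbook role, and all 33 are named. The members, lists and the added 16 were chosen with earlier results of these data known. 1 group of genes of another family is not reported here.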

Additional observations from a re-analysis of the deposited data

Results flagged for a closer look

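The effect of oligomycin differed between 4 h and 1 h for 8 members in a test of the difference itself. On the log2 scale, as 4 h minus 1 h, the difference was 0.862 for WRKY22, 0.7358 for IAA30, 0.682 for BZIP28 and 0.5197 for IAA18. It was −0.8115 for bHLH34, −0.7041 for NAC014, −0.6077 for BZIP61 and −0.4352 for bZIP19. Of the last 3, bZIP19 and NAC014 were not called after quantile normalization or centring on medians, and BZIP61 was not called after quantile normalization.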

How the results depend on the processing

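Of the 11 alternatives other than leaving out an array, 7 moved at least 1 count by over 1.5 times. At 1 h, IAA30 as the 1 rise became 0 rises with a pseudocount of 1 and with the replicate block, and 2 rises with a pseudocount of 32, quantile normalization, centring on medians or array weights. The 0 falls at 1 h became 1 with a pseudocount of 32, with array weights and with the dimmest 40% of probe sets left out. At 4 h the 11 falls became 6 with arrays centred on their medians. The 4 members with a lower effect at 4 h became 1 after quantile normalization and 2 after centring. Leaving out 1 array gave 0 to 1 rises and 0 to 1 falls at 1 h, 5 to 6 rises and 7 to 12 falls at 4 h, and 4 higher and 2 to 5 lower effects in the test between times. No member changed in ethanol in any alternative. Over all alternatives of the called members, 488 of 557 values stayed past the threshold in the same direction, 69 no longer passed and 0 reversed.

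The replicate numbers were not shown to pair the arrays, since the deviations of same-numbered arrays from their group means correlated with r of −0.091 to 0.167. With the number as a block, 6 members rose and 9 fell at 4 h. That fit called 8278 of all 22746 probe sets at 4 h, and 68.8% of these calls were falls. Of 11 members that average under 16, 3 were called (BZIP24, IAA31 and LBD29, all lower at 4 h), on intensities near the lower end of the scale. These are 27.3%, against 4.68% down among the 6839 probe sets that average under 16, and the share rests on 3 genes. The causes of these shifts were not tested.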

Other observations

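Single arrays stood apart for several dim members. IAA34 read 29.0 on the second ethanol array of 1 h and 6.1 and 7.6 on the others of that group. BZIP34 read 8.4 on the first ethanol array of 4 h and 1.5 and 1.4 on the others, and LBD29 read 3.9 on the third ethanol array of 4 h and 12.9 and 13.8 on the others.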
